A study of Mus musculus with 22 samples.

Results

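The genes of the elastic fibre and of its crosslinking were followed in FE1 cells exposed to carbon nanotubes. The set held 10 genes: the elastin gene Eln, the microfibril genes Fbn1, Fbn2 and Mfap5, the fibulin genes Fbln1, Fbln2 and Fbln5, and the lysyl oxidase genes Lox, Loxl1 and Loxl2. The rule takes them by name and sets no condition on a measured value, and their probes were found by matching the transcript accession of each probe to a symbol. The 10 genes were among 20018 named genes on the array and had 17 of its 55681 probes. Fbn1, Eln, Fbln2 and Mfap5 had 1 probe, Loxl2 had 3, and the other 5 genes had 2 each. Each gene is given by its probe with the strongest signal, and further probes are named where they differed.

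FE1 is a single epithelial cell line derived from the lung of a transgenic mouse, the MutaMouse. Cultures received Mitsui7, which consists of multi-walled carbon nanotubes, for 24 h at 12.5 µg/ml (D1, low dose, 6 arrays), 25 µg/ml (D2, medium dose, 5 arrays) or 100 µg/ml (D3, high dose, 6 arrays). Control cultures (5 arrays) were kept at 0 µg/ml, and all groups shared the same medium with serum, antibiotics and epidermal growth factor. Every one of the 22 arrays carried sample RNA in the Cy5 channel and a pooled reference RNA from 11 mouse cell lines in the Cy3 channel. Each value is therefore a log2 ratio of sample to reference, and a value of 0 means equal signal in both channels. Ratios were compared between groups for the same probe, and never between probes.

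Elastic fibres give lung, skin and large arteries their recoil. They form when tropoelastin, the product of Eln, is laid down on a scaffold of fibrillin microfibrils, with fibulins guiding its deposition and with lysyl oxidases joining the chains by crosslinks. Loss of fibulin-5 or of lysyl oxidase activity in mice is known to leave elastic fibres disordered, and fibrillin-1 also holds latent transforming growth factor beta in the matrix.

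The arrays lay on 5 slides, of which slides 1 to 4 held every group and slide 5 held only D1 and D3. Between 23688 and 39139 probes per array exceeded the negative control level. In this line the epithelial adhesion genes Epcam and Cdh1 were not detected in any group, whereas 4 of 6 epithelial markers, all keratins, were. The mean log2 ratio of the 6 epithelial markers ranged from -3.58 to -2.49 on Control arrays and from -3.58 to -3.03 at D3. In Control the keratins Krt8, Krt18 and Krt19 lay far below the reference pool, at -4.35, -5.62 and -4.91, and Krt7 lay at -0.31. Of these keratins, Krt7 was called lower at D2 and D3 (log2 changes of -0.79 and -0.85) by the rule given below. No other keratin was called at any dose. Of the alveolar type 2 markers 0 of 4 were detected in Control and at D1 and 1 of 4, Sftpc, at D2 and D3, where its log2 changes of 0.75 and 0.61 were not called. All 6 fibroblast markers were detected, and their mean log2 ratio ranged from -0.59 to -0.42 on Control arrays, from -1.37 to -0.66 at D1, from -1.45 to -1.06 at D2 and from -1.85 to -1.09 at D3. Of these markers 3, 4 and 4 of 6 were called lower at D1, D2 and D3, beside 1.93%, 2.93% and 4.23% of all detected probes. They were Pdgfra, Col1a1 and Col1a2 at each dose and Pdgfrb at D2 and D3. Thy1 and Vim were not called at any dose, with log2 changes of -0.02 and 0.14 at D3. In every group 3 of 4 smooth muscle markers (all but Myh11), 2 of 3 endothelial markers (all but Cdh5) and both leukocyte markers on the array were detected, and none of them was called at any dose. The part of these markers in the results below was not tested. D1 replicate 1 stood nearer to the higher doses than the rest of its group. On probes that changed at least 2-fold at D3 on the other slides, it showed 0.83 of the high-dose change, against 0.46 to 0.74 on the other D1 arrays and 0.67 to 0.89 on the D2 arrays.

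When each gene was read by its strongest probe, 2 of the 10 were called lower at 1 or more doses. Fbn1, which encodes the main fibrillin of adult microfibrils, fell at D2 and D3, and Loxl2, which encodes a lysyl oxidase-like enzyme, fell at D3. Fbln5 at D1 and D3 and Fbn1 at D1 also had an adjusted p of at most 0.05, with lower levels but a change of less than 1.5-fold. No gene of the set was called higher at any dose. A gene was called where limma's moderated test gave an adjusted p of at most 0.05 over all probes, with a change of 1.5-fold or more and signal above the negative controls on 4 or more arrays in 1 of the groups compared. All 10 genes passed this detection rule.

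At D1, 0 of 10 genes were called by limma, where 1.93% of 30652 detected probes were called lower and 1.32% higher. At an unadjusted p under 0.05 there were 4 of the 10 genes, beside 7709 of all 55681 probes. That base includes probes that were not detected, whereas all 10 genes were detected, so the shares are not alike. At D2, 1 gene was called lower and 0 higher, beside 2.93% of detected probes lower and 2.68% higher. At D3, 2 genes were called lower and 0 higher, beside 4.23% lower and 3.32% higher. The median log2 change of the 10 genes was -0.29 at D1, -0.37 at D2 and -0.34 at D3, whereas the median of all detected probes was 0.01 at each dose. Negative changes were found for 6, 8 and 6 of the 10 genes at D1, D2 and D3, against 48.8%, 48.8% and 48% of detected probes. The 3 doses were compared with the same 5 Control arrays, so their results are not independent of each other.

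**Figure D1:**
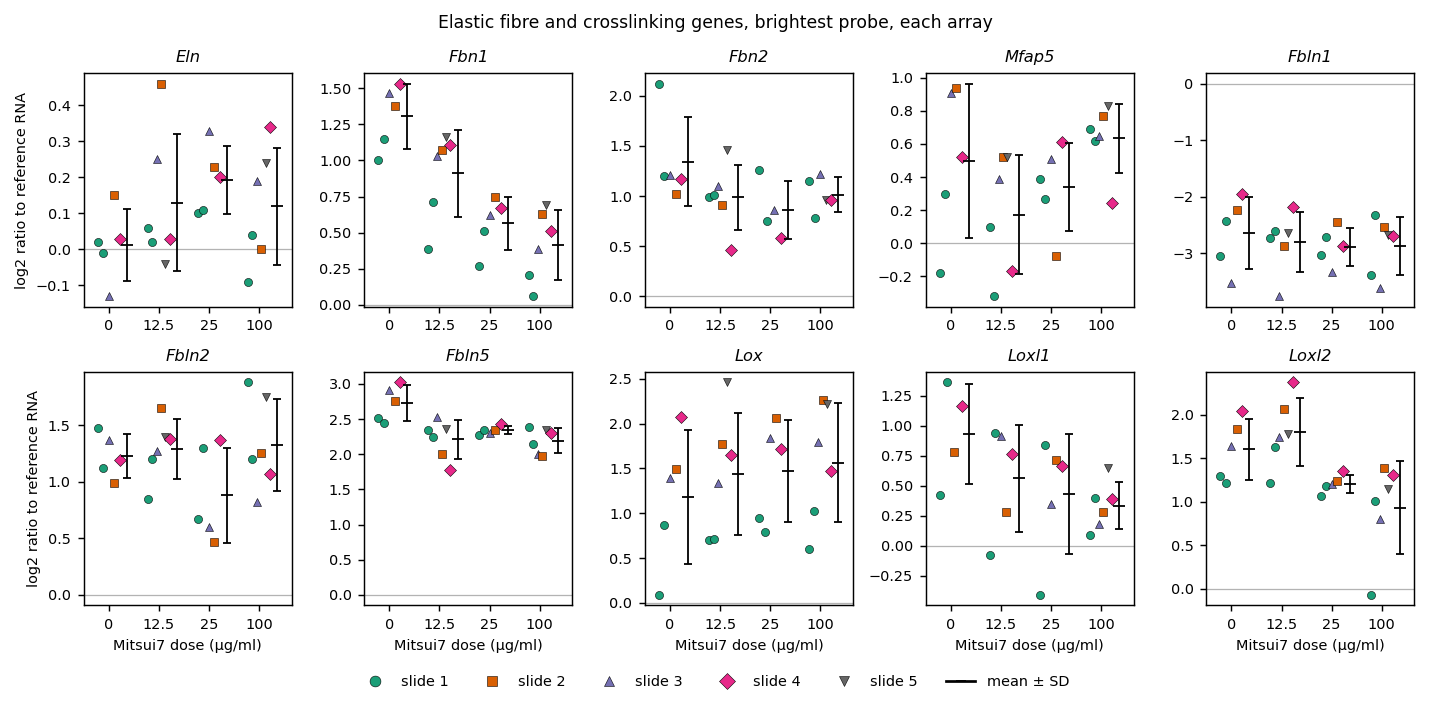
Log2 ratio to the reference RNA (vertical axes, which differ between panels) of each gene on each array, by Mitsui7 dose in µg/ml (horizontal axes, as categories). Symbols mark slides, and bars give the mean ± SD of the group. Fbn1 steps down from a mean of 1.31 in Control to 0.41 at D3, and Eln stays within -0.13 to 0.46 on all arrays.

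**Figure D2:**
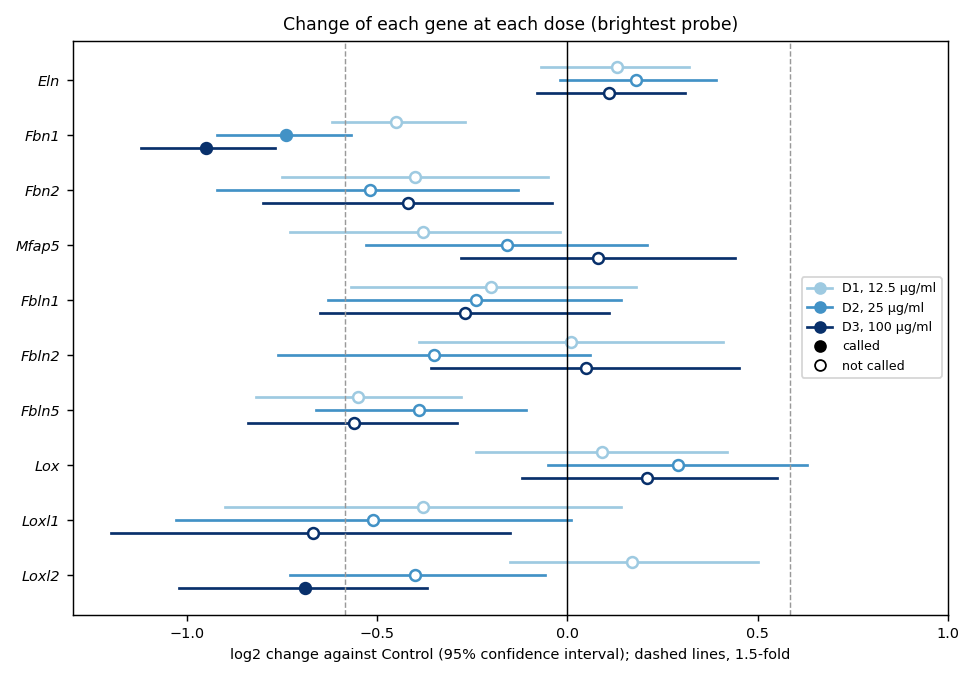
Log2 change of each gene against Control at each dose (horizontal axis) with its 95% confidence interval from limma, and filled symbols for called changes. Only the symbols of Fbn1 at D2 and D3 and of Loxl2 at D3 are filled, and those of Fbln5 at D1 and D3 lie just inside the 1.5-fold line.

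Elastin itself gave little signal. The Eln probe was well above its local background on 15 of the 22 arrays, and its Cy5 signal lay between 84 and 153. The log2 ratios were 0.02, -0.01, -0.13, 0.15 and 0.03 on the 5 Control arrays. At D2 they were 0.10, 0.11, 0.33, 0.23 and 0.20, and at D3 they ran from -0.09 over a median of 0.12 to 0.34. The groups overlapped at each dose. With the slide effect removed, 4 of 6 arrays at D1, 5 of 5 at D2 and 4 of 6 at D3 lay above every Control array, and within slides the mean was higher than Control on 4 of 4 slides at D1 and D2 and on 2 of 4 at D3. The log2 change was 0.13 at D1, 0.18 at D2 and 0.11 at D3, with adjusted p of 0.638, 0.402 and 0.654, and was not called. The 95% interval at D3 ran from -0.08 to 0.31, so a change of Eln of 1.5-fold or more in either direction lay outside it, as far as so dim a probe can show one.

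The fibrillin genes encode the large glycoproteins that polymerise into microfibrils. Fbn1 showed the clearest change of the set. Its log2 ratio was 1.00, 1.15, 1.47, 1.38 and 1.53 on the Control arrays. At D1 it ran from 0.39 over a median of 1.05 to 1.16. The 5 D2 arrays gave 0.27, 0.51, 0.62, 0.75 and 0.67, and the 6 D3 arrays ran from 0.06 over a median of 0.45 to 0.69. All D2 and D3 arrays lay below the lowest Control array, while 4 of the 6 D1 arrays lay within the Control range. Once the slide effect of the model was removed, every exposed array at every dose lay below every Control array.

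The log2 change of Fbn1 was -0.45 ± 0.08 (SE) at D1, -0.74 at D2 and -0.95 at D3, corresponding to 1.36-fold, 1.67-fold and 1.93-fold lower levels. The adjusted p was 0.00289, 1.2e-05 and 2.18e-07. On each of the 4 slides with all groups the mean fell at every step of dose, from Control to D1, D2 and D3. The fall within slides at D3 was between -1.08 and -0.75. Between D3 and D1 the log2 difference was -0.50, 95% interval -0.66 to -0.34, with an adjusted p of 0.00682 but less than 1.5-fold. The single steps were not called by limma, at -0.29 for D2 against D1 and -0.20 for D3 against D2 (adjusted p of 0.869 and 0.999). With no slide term the adjusted p was 0.248 at D1 and 0.335 between D3 and D1, while the D2 and D3 calls stayed. Leaving out any 1 array kept the D2 and D3 calls.

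The start of Fbn1 is shown because its mean fell at each step of dose on the 4 slides with all groups. RefSeq (GRCm38.p6) lists the window at chr2:125506389-125506688 on the minus strand, from 250 bases before to 50 bases after the start of transcription. It is printed 5′ to 3′, with capitals marking the GC box motif GGGCGG.
Fbn1 promoter: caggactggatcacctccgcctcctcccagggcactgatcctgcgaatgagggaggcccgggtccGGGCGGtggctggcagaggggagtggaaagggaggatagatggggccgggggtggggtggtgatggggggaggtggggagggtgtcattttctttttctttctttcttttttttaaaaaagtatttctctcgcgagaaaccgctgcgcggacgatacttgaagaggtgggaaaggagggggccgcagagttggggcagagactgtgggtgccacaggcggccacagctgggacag

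In this window the GC box was found 1 time, 185 bases before the start, on the strand of the gene, and 35.7% of 32851 mouse promoter windows of 300 bases held it on either strand. Neither strand held the TATA box (letters TATAAA), which 13.6% of windows held, nor the CCAAT box, which 37.4% held. The same was true of the AP-1 motif (TGANTCA, in 7.81% of windows), the aryl hydrocarbon receptor core (GCGTG, in 32.4%) and the E-box (CACGTG, in 7.15%). The GC content of the window was 60.3%, beside a median of 52.7% over all windows. The arrays did not measure binding or chromatin, so a match is a description of the sequence alone.

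Fbn2 encodes fibrillin-2, which is made mostly in development. Its stronger probe gave 2.12, 1.20, 1.21, 1.02 and 1.17 on Control arrays. Spots marked as outliers left it without a value on D2 replicate 4 and D3 replicate 4. At D3 the 5 remaining arrays gave 1.15, 0.78, 1.22, 0.96 and 0.96, of which 3 lay below every Control array. The log2 change was -0.40 at D1, -0.52 at D2 and -0.42 at D3, with adjusted p of 0.274, 0.14 and 0.214. The second Fbn2 probe differed in its call, with a log2 change of -0.72 at D2 and an adjusted p of 0.0492, and changes of -0.26 at D1 and -0.37 at D3 that were not called. On slides 1, 2, 3 and 4 the D2 change of the second probe was -0.48, -0.73, -1.91 and -0.02. The signal of both probes was low. On the arrays with a value, Cy5 lay between 94 and 334 for the stronger probe and between 99 and 386 for the second.

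Mfap5 encodes a small glycoprotein bound to microfibrils. On Control arrays its log2 ratio was -0.18, 0.30, 0.91, 0.94 and 0.52, and at D3 it ran from 0.24 over a median of 0.67 to 0.83. The groups overlapped at all doses. The log2 change was -0.38 at D1, -0.16 at D2 and 0.08 at D3, and the adjusted p was 0.328, 0.783 and 0.903. The D3 level lay above the D1 level by 0.46 ± 0.16 (SE), with an adjusted p of 0.36.

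Among the fibulins, Fbln5 encodes the protein that binds tropoelastin to integrins and to lysyl oxidase-like 1. Its log2 ratio on the Control arrays was 2.51, 2.44, 2.92, 2.75 and 3.02. At D1 it ran from 1.78 over a median of 2.30 to 2.53. The D2 arrays gave 2.28, 2.35, 2.30, 2.34 and 2.43, and the D3 arrays ran from 1.97 over a median of 2.22 to 2.39. Of the exposed arrays 5 of 6 at D1, 5 of 5 at D2 and 6 of 6 at D3 lay below the lowest Control array.

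The log2 change of Fbln5 was -0.55 ± 0.13 (SE) at D1, -0.39 at D2 and -0.56 at D3, with adjusted p of 0.0188, 0.11 and 0.0069. These changes of 1.46-fold, 1.31-fold and 1.48-fold stayed under the 1.5-fold limit, so Fbln5 was not called. The call at D1 was made when Control replicate 1, Control replicate 2, D1 replicate 1 or D1 replicate 3 was left out, with log2 changes of -0.60, -0.62, -0.59 and -0.63. At D3 it was made without Control replicate 1 (-0.62), Control replicate 2 (-0.64), D3 replicate 1 (-0.62) or D3 replicate 6 (-0.60). Without slide 1 the changes were -0.79 at D1 and -0.81 at D3, and both were called. Within slide 1, which held 2 arrays of each group, the changes were smaller, -0.18 at D1, -0.16 at D2 and -0.20 at D3. The change did not grow with dose, since D3 and D1 differed by -0.02, 95% interval -0.27 to 0.23. A second, dim Fbln5 probe was well above background on 1 array of each group and changed by 0.01, -0.07 and -0.18.

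The window of Fbln5 is given beside that of Fbn1, since both had an adjusted p of at most 0.05 at D1 and D3. RefSeq places it at chr12:101819070-101819369 on the minus strand of GRCm38.p6, and a second, downstream start of the same gene is not printed. The window of that second start held none of the 6 motifs on either strand. Capitals mark the GC box, the CCAAT box and the aryl hydrocarbon receptor core on either strand.
Fbln5 promoter: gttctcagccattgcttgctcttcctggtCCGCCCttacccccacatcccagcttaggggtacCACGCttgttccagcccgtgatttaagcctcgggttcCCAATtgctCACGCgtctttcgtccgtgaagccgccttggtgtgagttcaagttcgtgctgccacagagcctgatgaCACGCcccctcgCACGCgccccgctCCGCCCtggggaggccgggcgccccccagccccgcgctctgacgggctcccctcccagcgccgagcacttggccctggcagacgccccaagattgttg

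This window held the GC box 2 times and the core GCGTG 4 times, all on the opposite strand and read there as CCGCCC and CACGC, and the CCAAT box 1 time. None of these matches overlapped, and the GC box was the only one of the 6 motifs found in both printed windows.

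Fbln2, whose product binds fibrillin-1 and elastin, gave Cy5 signals between 12892 and 97396, and the spot was saturated on 0 arrays. Its log2 ratio was 1.48, 1.12, 1.37, 0.99 and 1.19 on Control arrays and ran from 0.82 over a median of 1.23 to 1.88 at D3. The changes of 0.01, -0.35 and 0.05 had adjusted p of 0.993, 0.446 and 0.957, and the groups overlapped. Fbln1, which encodes a fibulin found around elastic fibres and basement membranes, lay far below the reference pool in every group. Its mean log2 ratio was -2.64 ± 0.64 (SD, n = 5) in Control and -2.87 ± 0.51 (SD, n = 6) at D3, with a Cy5 signal between 72 and 137. Its change of -0.27 at D3 had an adjusted p of 0.529 and a 95% interval from -0.65 to 0.11. With the scanner's own log ratio in place of loess, Fbln1 was called lower at D1 (-1.11, adjusted p = 0.0129) and at D3 (-0.86, adjusted p = 0.0298). The other Fbln1 probe was well above background on 0 arrays and was not detected in 4 arrays of any group.

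The lysyl oxidases oxidise lysines of elastin and collagen so that crosslinks can form. Loxl2 was measured by 3 probes, all of which were called lower at D3. By the strongest probe the log2 ratio was 1.30, 1.21, 1.64, 1.83 and 2.04 on the Control arrays and ran from 1.21 over a median of 1.76 to 2.37 at D1. The D2 arrays gave 1.06, 1.18, 1.20, 1.24 and 1.35, and the D3 arrays ran from -0.07 over a median of 1.08 to 1.39. At D3 4 of 6 arrays lay below the lowest Control array, and all 6 did after the slide effect was removed. The D1 arrays lay within or above the Control range.

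The log2 change of Loxl2 by this probe was 0.17 ± 0.16 (SE) at D1, -0.40 at D2 and -0.69 at D3, with adjusted p of 0.712, 0.202 and 0.00606. The D3 change was 1.62-fold. Without D3 replicate 1, the lowest array, it was -0.53 with an adjusted p of 0.00858, which is under 1.5-fold, so this probe's D3 call rested on that array. Without slide 3 the change was -0.66 with an adjusted p of 0.0588, and in all 5 of 42 alternatives ended the call. The further probes gave -0.69 (adjusted p = 0.000315) and -0.89 (adjusted p = 0.000122) at D3. With the slide effect removed, D3 replicate 1 was at 1.05 on the first of them, beside 1.05 to 1.33 on the other D3 arrays. On the second it was at 1.37, beside 1.20 to 1.78. The calls of these 2 probes without that array were not tested. At D1 these probes gave -0.15 each, so the direction at D1 depended on the probe, and none of the 3 was called there.

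Loxl2 was also lower at D3 than at D1, which was the single call of the set between doses. In that comparison 0.211% of 33098 detected probes were called lower and 0.0363% higher. The log2 difference by the strongest probe was -0.87 ± 0.15 (SE), 95% interval -1.17 to -0.56, with an adjusted p of 0.0109. The further probes gave -0.74 (adjusted p = 0.0101, called) and -0.54 (adjusted p = 0.0281, less than 1.5-fold). The call was lost under 9 of 42 alternatives, among them no slide term (adjusted p = 0.193), median centring in place of loess (0.638) and the authors' matrix (0.0699), while the difference stayed between -0.96 and -0.67. Between D3 and D2, and between D2 and D1, 0 of 10 genes and 0% of all detected probes were called by limma. At an unadjusted p under 0.05 there were 1 and 2 genes of the set in these comparisons, beside 2311 and 3174 of all probes, detected or not.

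**Figure D3:**
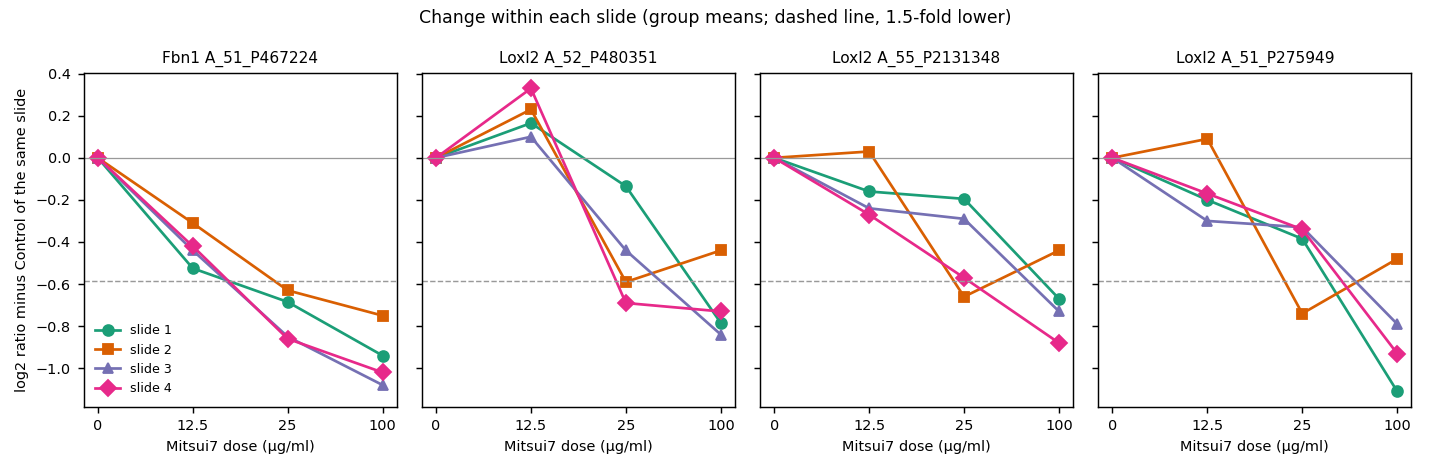
Group mean of the log2 ratio minus that of Control on the same slide (vertical axis) for the Fbn1 probe and the 3 Loxl2 probes, by dose in µg/ml (horizontal axis, as categories), with 1 line per slide. The Fbn1 lines fall at every step on all 4 slides to between -1.08 and -0.75, and the Loxl2 lines end at D3 between -1.11 and -0.44.

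Loxl1 encodes the enzyme that fibulin-5 brings to elastin. Its log2 ratio on the 4 Control arrays with a value was 0.42, 1.36, 0.78 and 1.16, since the spot on Control replicate 3 was marked as an outlier. At D3 it ran from 0.09 over a median of 0.33 to 0.65, and 5 of 6 arrays lay below every Control array. The log2 change was -0.38 at D1, -0.51 at D2 and -0.67 at D3, with adjusted p of 0.568, 0.344 and 0.124. When a replicate block took the place of the slide term, the D3 change was -0.63 and was called (adjusted p = 0.00586). With marked spots kept it was -0.73 and was also called (adjusted p = 0.0447). The second Loxl1 probe gave -0.40, -0.50 and -0.65, none of them called.

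Lox encodes the founding lysyl oxidase. Its log2 ratios followed the slides, with Control arrays at 0.09, 0.87, 1.39, 1.49 and 2.08 and D3 arrays from 0.60 over a median of 1.63 to 2.27. The groups overlapped at every dose. The log2 change was 0.09 at D1, 0.29 at D2 and 0.21 at D3, with adjusted p of 0.879, 0.446 and 0.591, and the 95% interval at D3 ran from -0.12 to 0.55. The second Lox probe gave 0.53 at D2 and 0.55 at D3, with adjusted p of 0.503 and 0.417. It differed in sign at D1 (-0.10), where D1 replicate 4 gave -1.79 and the other D1 arrays 0.55 to 1.48.

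Against the reference pool, 7 of the 10 genes lay above it on every Control array. Fbln1 alone lay below the pool on every Control array, and Eln and Mfap5 lay on both sides of it. The pool is the same on every array, but its own level of each transcript is unknown, so these ratios do not rank the genes by abundance.

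Other genes of the pathway were drawn from 6 lists, whose counts stand beside 1.93%, 2.93% and 4.23% of all detected probes called lower at D1, D2 and D3 and 1.32%, 2.68% and 3.32% called higher. Of 18 further microfibril and fibulin genes on the array, 15 passed the detection rule at D3, and 6 were called lower and 0 higher there. At D1 and D2 it was 3 and 4 lower of 14 that passed. Efemp1, which encodes fibulin-3, fell by 1.43 on the log2 scale at D3, from -1.25 ± 0.16 (SD, n = 5) to -2.72 ± 0.15 (SD, n = 6), with an adjusted p of 4.8e-08. Ltbp2, the gene of a latent transforming growth factor beta binding protein that joins microfibrils, fell by 1.27 (adjusted p = 1.87e-07). Emilin1, a glycoprotein gene of the elastin-microfibril interface, changed by -1.06, and Efemp2, the gene of fibulin-4, by -0.91 (adjusted p of 0.00613 and 1.96e-07). Mfap4, whose product binds elastin and collagen, changed by -0.91 and the metalloprotease gene Adamts10 by -0.74, with adjusted p of 0.000304 and 0.0385. The median change at D3 of the genes that passed was -0.44, beside 0.01 for all detected probes.

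Of 11 further genes listed for crosslinking or for the activation of lysyl oxidases, 11, 10 and 10 passed the detection rule at D1, D2 and D3. Of those, 3, 2 and 5 were called lower and 0 higher, beside the 1.93%, 2.93% and 4.23% lower among all detected probes. Pcolce, the gene of an enhancer of procollagen C-proteinase, fell by 1.42 at D3 (adjusted p = 3.65e-06), and Tgm2, a transglutaminase gene, fell by 0.97 (adjusted p = 0.000187). The lysyl hydroxylase genes Plod1 and Plod2 changed by -0.91 and -0.89, with adjusted p of 0.0375 and 0.00091. Loxl3, another lysyl oxidase-like gene, changed by -0.67 (adjusted p = 5.4e-05).

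Genes that break down elastin or bind the fibre were listed as well. Of 10 elastin-degrading protease genes 6 passed the detection rule at D3. The lysosomal protease gene Ctsl was called higher at D2 (0.65, adjusted p = 0.0336) and at D3 (0.81 ± 0.17 SE, adjusted p = 0.00551). The gelatinase gene Mmp2 was called lower at D3 alone (-0.83, adjusted p = 0.0461), and no other protease gene was called at any dose. Of 5 inhibitor genes, among them the Timp genes, 0 were called by limma at any dose. Of 11 elastic fibre receptor genes 9 passed the detection rule at each dose. Lgals3, the gene of galectin-3, rose at each dose, by 1.05, 1.23 and 1.44, and the integrin gene Itgb3 fell by 0.74 at D3. No other receptor gene was called at any dose. Of 10 growth factor and signalling genes known to regulate elastin and Lox, 10, 9 and 9 passed the detection rule at D1, D2 and D3. Tgfb2 fell by 0.85, 1.24 and 1.84 at these doses. Tgfb3 changed by -0.99 at D2 and -1.54 at D3, and it was the only other gene of that list to be called at any dose.

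**Figure D4:**
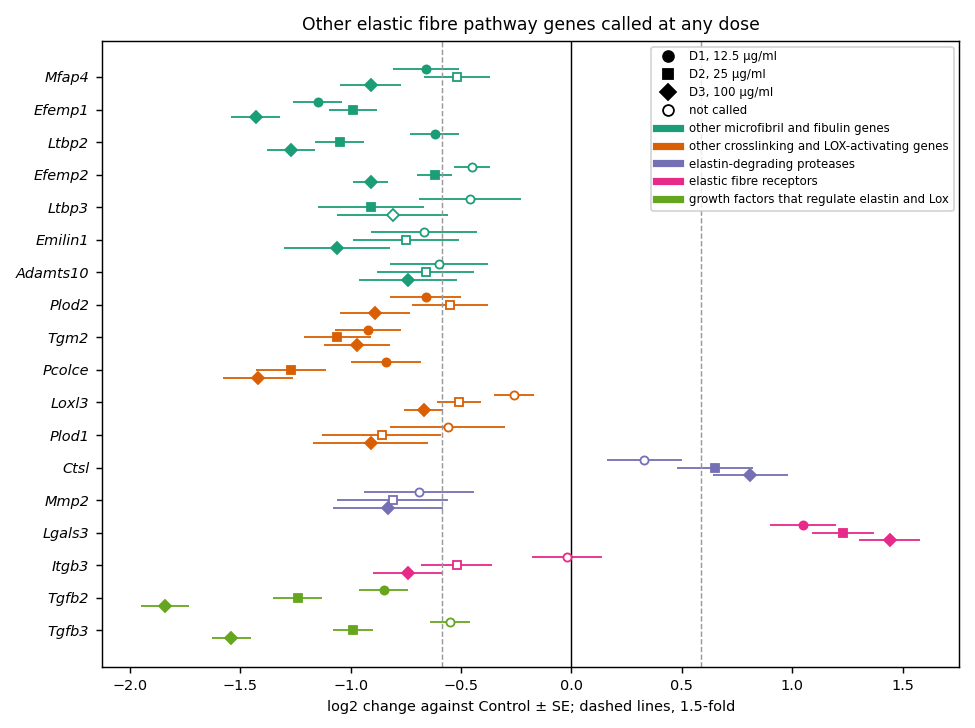
Log2 change against Control ± SE (horizontal axis) of the genes of the 6 further lists that were called at any dose, with a symbol shape per dose and a colour per list. The microfibril, crosslinking and growth factor genes lie left of 0, down to -1.84 for Tgfb2 at D3, and Lgals3 and Ctsl lie to the right.

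The genes with the most similar profile over the 22 slide-adjusted arrays were sought among 16014 detected probes with a symbol and no missing value. For Fbn1 they were Ltbp2 (Pearson r = 0.977), Pdia6 (0.974) and Chpf2 (0.97). For Lox they were Paip2b (0.881), Strap (0.87) and Cdkl4 (0.839), and for Eln they were Katnal1 (0.736), Scg5 (0.702) and Scaf4 (0.694). These arrays share doses and a reference, so the coefficients describe likeness only. In RNA from whole cultures, fewer cells that make a transcript and less of it per cell cannot be told apart.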

How the data were processed

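RNA of FE1 cultures was hybridised to 22 arrays with Cy5 against a common Cy3 reference. The dye orientation was the same throughout, so that dye bias cancels only in differences between groups. The labels give several exposures per dose and day without assigning arrays to them, so p-values measure the spread between these arrays, which may be partly technical. The 10 genes, the further lists and the tests were chosen with earlier results of these data known.

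The authors extracted the median intensity of each spot in both channels with Feature Extraction 10.7.3.1 (G2505C scanner, 3 µm), per the file headers; the methods of the study name other versions. The deposited files also hold the scanner's log10 ratio, and 0 or 1 marks (another unit) for outlier, saturated and well above background spots. The authors' matrix holds processed log2 ratios with normalization not given in the sources used here; its columns correlated with the values below with a median r of 0.985 (lowest 0.84).

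Of 62976 spots per array, 3671 control spots were left out, and spots marked as outliers (0.401% to 6.22%) were set to missing. Log2(Cy5/Cy3) of median signals, with no background subtracted, was loess-normalised array by array, and spots of a probe were combined by their median. A probe was detected where Cy5 exceeded the trimmed mean plus 3 SDs of 308 negative control spots. These signals are not counts, and precision is limited by the number of arrays. Symbols came from RefSeq accessions of GRCm38.p6 for 26413 probes. Accessions are taken from the array design, and probes of related genes can share signal.

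The comparisons used limma 3.58.1 (R 4.3.3), with group and slide as terms over all 22 arrays and Benjamini-Hochberg adjustment over all probes; the permutation test of the study's methods was not installed. Calls required adjusted p ≤ 0.05, a change of 1.5-fold or more and detection in 4 arrays of either group. All members are named by their probe with the highest mean log2 Cy5 signal, and further probes where a detected one differed in call or sign. Of the other lists, at most 6 genes each are named, those called at D3 with the largest change, and for Eln, Fbn1 and Lox the 3 nearest profiles. The model was run on simulated arrays with independent noise, which cannot show how it behaves where arrays depend on each other. Deviations from the group means of same-numbered arrays correlated at 0.187 to 0.819 in the 27 pairs on the same slide. In the 4 pairs on different slides they correlated at 0.27 to 0.491. Arrays with different numbers were not compared, so these values cannot show whether the numbers mark pairs. The main model therefore kept the slide term, and the replicate number entered only as a block in an alternative. The alternatives changed the slide term, scaling, background, probe choice, filters and arrays; leaving out D1 replicate 1 and D2 replicate 2 together was added after seeing the data.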

Additional observations from a re-analysis of the deposited data

Results flagged for a closer look

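In the 68 groups of 4 to 6 arrays (17 probes by 4 groups), 3 held an array far from the rest by Dixon's test, which chance does in about 1 of 20 groups. The stronger Fbn2 probe was at 2.12 on Control replicate 1, where the next Control array was at 1.21. The second Lox probe was at -1.79 on D1 replicate 4, where the next D1 array was at 0.55. Mfap5 was at 0.24 on D3 replicate 6, where the next D3 array was at 0.62.

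Effects against the same Control differed between the high and the low dose for 2 genes, by limma's test of D3 against D1 (adjusted p of at most 0.05). The log2 difference was -0.50 for Fbn1. For Loxl2 it was -0.87 by the strongest probe, and -0.54 and -0.74 by the others. Both genes were lower at D3.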

How the results depend on the processing

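The changes of Fbn1 against Control were negative under all 42 alternatives at each dose, between -0.99 and -0.89 at D3, as were those of Loxl2 at D3 (-0.79 to -0.53). Over the 10 genes and 4 comparisons, alternatives other than leaving out single arrays gave the same direction and call 734 times, turned the direction 37 times, lost a call 18 times and made one 11 times. With the replicate block in place of slide the members called were 0, 1 and 3 at D1, D2 and D3, Loxl1 being the added one, and no other call changed.

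At D1, 1 gene was called with the scanner log ratio (Fbln1), without slide 1 (Fbln5) and without D1 replicate 1 and D2 replicate 2 together (Fbln5), and 2 with no fold threshold (Fbn1, Fbln5). At D2, 0 were called with median centring, a 2-fold threshold or slide 1 alone. At D3, 1 was called with no slide term or without slide 3 (Fbn1 in both), and 0 with a 2-fold threshold or slide 1 alone; 3 were called with the scanner log ratio (Fbln1 added), marked spots kept (Loxl1 added), no fold threshold or without slide 1 (Fbln5 added in both). Between D3 and D1, 0 were called with no slide term, only these 2 groups, median centring, the scanner log ratio, the authors' matrix, a 2-fold threshold, without slide 3, without slide 4 or slide 1 alone, and 2 with no fold threshold (Fbn1, Loxl2). Settings that leave out slides test fewer arrays, and detection then needed 3 arrays without slide 1 and 2 on slide 1 alone. For the others the cause was not tested. Leaving out single arrays gave 0 to 1 called at D1, 1 to 1 at D2, 2 to 3 at D3 and 1 to 1 between D3 and D1. These counts do not show which genes were called: without D3 replicate 1, Fbln5 was called at D3 in place of Loxl2. Over all probes, median centring made 85.1%, 62% and 71% of calls lower at D1, D2 and D3, against 59.4%, 52.2% and 56% with loess, and called 423, 606 and 1296 probes in place of 999, 1666 and 2436.

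Turned directions were all of changes that were not called. Against Control at D1, Fbln2 was at -0.15 with median centring, -0.06 with the scanner log ratio, -0.14 without slide 2, -0.03 without slide 4 and -0.27 on slide 1 alone; Lox was at -0.05 with median centring, -0.01 by the median of its probes and -9e-04 without slide 1; Loxl1 was at 0.05 with the scanner log ratio, Loxl2 at -0.03 by the median of its probes and Fbln1 at 0.06 on slide 1 alone. At D2, Mfap5 was at 0.06 without slide 2 and 0.27 on slide 1 alone. At D3, Fbln2 was at -0.01 with median centring, -0.04 without slide 1 and -0.02 without slide 2, Mfap5 at -0.23 without slide 1 and Eln at -0.03 on slide 1 alone. Between D3 and D1, Fbn2 was at 0.03 with no slide term, 0.01 with only these groups, 0.11 with the authors' matrix, 0.09 with marked spots kept, 0.02 without slide 1, 0.01 without slide 2 and 0.09 without slide 5. Eln was at 0.02 with median centring, 0.11 with the scanner log ratio, 0.02 without slide 1 and 0.08 without slide 2. Fbln5 was at 0.09 with median centring, 0.09 without slide 3 and 0.02 without D1 replicate 1 and D2 replicate 2. Fbln1 was at 0.25 with the scanner log ratio and 0.02 without slide 4. Fbln2 was at -0.20 without slide 1, -0.02 without slide 5 and -0.05 without D1 replicate 1 and D2 replicate 2. Leaving out single arrays gave, at D1, -0.13 to 0.12 for Fbln2 and -0.04 to 0.25 for Lox, at D2 -0.30 to 0.03 for Mfap5, and at D3 -0.09 to 0.14 for Fbln2 and -0.06 to 0.18 for Mfap5. Between D3 and D1 it gave -0.07 to 0.05 for Eln, -0.11 to 0.09 for Fbn2, -0.19 to 0.04 for Fbln1, -0.08 to 0.17 for Fbln2 and -0.13 to 0.05 for Fbln5.

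Dim probes limit Eln, Fbn2 and Fbln1, whose signal lay close to the negative controls, and ratios without background subtraction understate changes of such probes.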
